A study of Arabidopsis thaliana with 8 samples.

Results

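The glutaredoxin genes AT4G15680, AT4G15660, AT3G62950, AT1G06830 and AT2G30540 of Arabidopsis were followed in shoots of seedlings grown with or without a brassinosteroid, before, during and after heat. They were taken as a given list of 5 loci from the authors' deposited tables, chosen on their lower EBR to control ratios. The tables hold 3 more glutaredoxin genes of the same class with lower values in EBR shoots, AT3G62930, AT4G15690 and AT4G15700, which the list leaves out for a reason not given and which are described apart. They make 5 of the 692 genes that could be named and lie on 5 of the 22746 probe sets of the ATH1 array. The brassinosteroid was 24-epibrassinolide (EBR), a synthetic form of the steroid hormones that promote growth in plants. Seedlings of the Columbia ecotype had 1 µM EBR in the medium for 21 days, and control seedlings had 0.01% ethanol. The EBR groups were unstressed (0 h), heated at 43°C for 1 h, heated for 3 h, or heated for 3 h and returned to 22°C for 6 h of recovery. The control groups were taken at the same 4 stages. Each of the 8 groups has 1 deposited sample, which per the labels stands for 3 biological replicate arrays of shoot tissue above the medium, with at least 30 seedlings pooled per treatment.

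Glutaredoxins are small thiol proteins that use glutathione to reduce disulphides or to remove glutathione from proteins. All 5 genes belong to the CC-type class, a class of land plants named for adjacent cysteines in the active site. CC-type glutaredoxins bind TGA transcription factors, and several of their genes in Arabidopsis are known to respond to nitrate and to cytokinin. AT4G15660 and AT4G15680 lie in a run of 5 successive protein-coding loci, AT4G15660 to AT4G15700, which is known as a nitrate-responsive glutaredoxin cluster. AT1G06830 has been described in Arabidopsis as a leaf-made polypeptide that moves to roots and raises nitrate uptake there.

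The value table expresses each sample relative to its own stage's control on a linear scale, so a value gives the EBR effect at a stage and no signal level. Because the 5 genes were chosen for a lower signal with EBR, their ratios are a description and carry no test. All 20 ratios, 5 genes at 4 stages, were below 0 on the log2 scale, while 20.3% of all probe sets were below 0 at every stage. At least 2-fold lower with EBR were 3 of the 5 genes at 0 h, 2 at 1 h, 2 at 3 h and 5 at recovery. The share of all probe sets at least 2-fold lower was 0.123%, 0.123%, 0.154% and 0.365% at these stages, and nothing is read from the difference, since the same contrast chose the genes. The median log2 ratio of the 5 genes was -1.65, -0.70, -0.83 and -1.38 in the order of the stages, where the median of all probe sets lay between -0.04 and -0.01. In whole shoots, fewer cells of a type and less RNA per cell cannot be told apart.

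AT3G62950 had the lowest mean ratio of the 5 over the stages. Its deposited EBR value was 0.304, 0.268, 0.301 and 0.195 at 0 h, 1 h, 3 h and recovery, against 1.00, 0.991, 1.00 and 0.946 for the control. The log2 ratios of -1.72, -1.88, -1.73 and -2.28 placed AT3G62950 5th, 2nd, 4th and 2nd from the bottom of all probe sets. Its level with EBR was thus 20.6% to 30.4% of control, with the lowest value at recovery. The mean log2 ratio was -1.90 ± 0.26 (SD, n = 4 stages).

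AT1G06830 was next, with an EBR value of 0.314, 0.407, 0.382 and 0.306 at the 4 stages in order and a control value of 0.986, 0.992, 0.992 and 0.894. Its log2 ratios were -1.65, -1.29, -1.38 and -1.55, the narrowest range over stages of the 5 genes (0.37). The mean was -1.47 ± 0.17 (SD, n = 4 stages). AT1G06830 and AT3G62950 were at least 2-fold lower at all 4 stages, as were 6 probe sets of the array in all (0.0264%).

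AT4G15680 had the widest range over stages of the 5 genes (1.14). The EBR value was 0.28 at 0 h, and then 0.605, 0.551 and 0.445 at 1 h, 3 h and recovery, against control values of 1.00, 0.985, 0.982 and 0.999. At 0 h its log2 ratio of -1.84 was the second lowest of the array, and during heat the ratio lay nearer to control, at -0.70 after 1 h and -0.83 after 3 h. At recovery it was -1.17. The mean was -1.14 ± 0.51 (SD, n = 4 stages).

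AT4G15660, from the same run of loci, had EBR values of 0.512, 0.713, 0.568 and 0.361 against control values of 1.00, 0.988, 0.99 and 0.943. Its log2 ratios of -0.96, -0.47, -0.80 and -1.38 were nearest to control after 1 h of heat and farthest from it at recovery. AT2G30540 had EBR values of 0.502, 0.639, 0.602 and 0.38 against control values of 0.941, 0.981, 0.954 and 0.901. The log2 ratios of AT2G30540 were -0.91, -0.62, -0.66 and -1.25, so only recovery passed 2-fold for both genes. The means were -0.91 ± 0.38 for AT4G15660 and -0.86 ± 0.29 for AT2G30540 (SD, n = 4 stages). These means and that of AT4G15680 differ from one another by less than the SD over stages of AT4G15680.

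**Figure D1:**
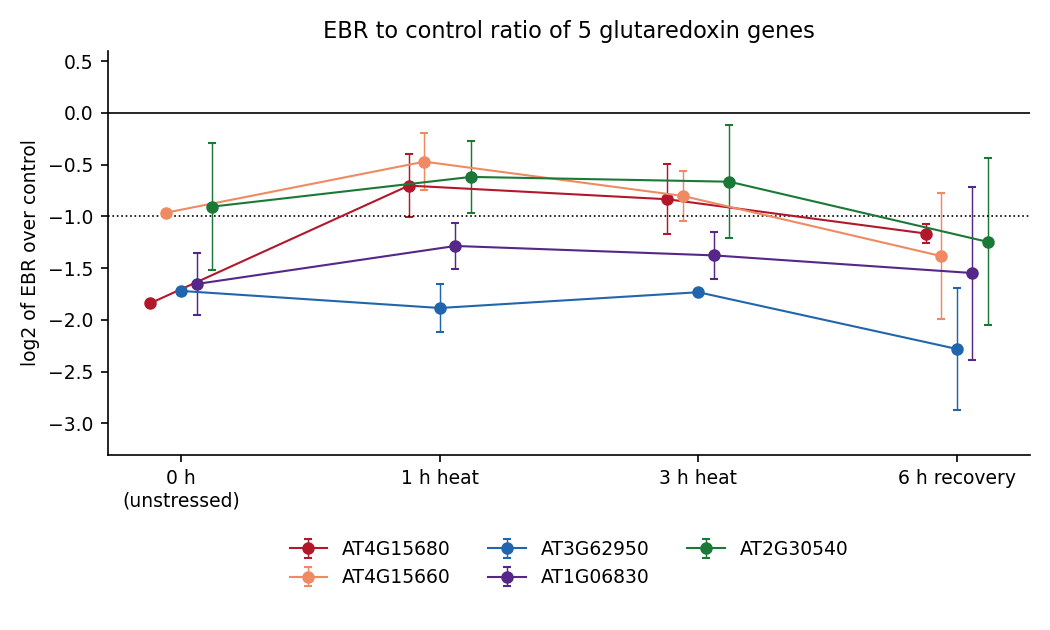
The log2 ratio of EBR over control (vertical axis) is plotted at the 4 stages for each of the 5 genes, with points set slightly apart sideways. Bars are the approximate SD of the control arrays read from the control columns, the solid line is no difference and the dotted line is 2-fold lower. AT3G62950 lies between -2.28 and -1.72, and all 5 genes are below the dotted line only at recovery.

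An approximate spread between the 3 control arrays was read from how far each control value lies below 1, which is an inference from the values. For AT3G62950 this SD of the log2 control signal was 0.03, 0.24, 0.02 and 0.59 at the 4 stages, and for AT1G06830 it was 0.30, 0.22, 0.23 and 0.84. For AT2G30540 it was 0.62, 0.35, 0.54 and 0.81, against medians over all probe sets of 0.10 to 0.11. Control arrays thus differed most at recovery for AT1G06830, AT2G30540, AT3G62950 and, at 0.61, AT4G15660, while AT4G15680 had 0.09 there. A standard error of a ratio follows from the SD pooled over the 4 stages, if EBR arrays vary like control arrays. It is 0.26 for AT3G62950, 0.19 for AT4G15680, 0.39 for AT1G06830, 0.29 for AT4G15660 and 0.49 for AT2G30540. At recovery this pooled error is too small for AT3G62950, AT1G06830, AT4G15660 and AT2G30540, whose control SD there is above the pooled SD. For AT4G15680 it is too large there.

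The recovery ratio was also set against the mean of the ratios at 0 h, 1 h and 3 h. The other 3 stages are those of the tables that chose the 5 genes for a lower signal with EBR, so for them the difference is a description and carries no test. It was -0.64 for AT4G15660, -0.52 for AT2G30540 and -0.50 for AT3G62950, and -0.11 for AT1G06830 and -0.04 for AT4G15680, which were 0.081 and 0.28 after quantile normalization. The same normalization put AT4G15660 nearer to 0 at -0.48, AT2G30540 at -0.29 and AT3G62950 at -0.34. Over the array limma called the same difference above 0 for 0.374% of probe sets and below 0 for 0.11%. The 3' to 5' signal of 4 actin and GAPDH control pairs, a sign of RNA quality, differed between arms in the same stages. In EBR relative to control its log2 value was -0.15 to 0.25 at 0 h, 0.29 to 0.57 at 1 h, -0.30 to 0.06 at 3 h and -0.47 to -0.08 at recovery. Its part in the stage differences was not tested.

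The authors' deposited tables give the same genes in another form, as condition means of signal intensity and of normalized log2 signal. In the authors' deposited tables AT3G62950 had a mean intensity of 55.8 with EBR and 305 in control at 0 h. The intensities were 65.1 with EBR and 307 in control at 1 h, and 93.8 with EBR and 379 in control at 3 h. AT1G06830 had 7.43, 7.22 and 7.51 with EBR in the authors' deposited tables, against 60.6, 51.4 and 54.1 in control. The EBR signal of AT1G06830 is close to the lowest intensity in these tables, 3.55, and the background level is not known here. AT2G30540 had 27.2, 34.7 and 29.6 with EBR, against 66.7, 66.8 and 74.0 in control.

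In the authors' deposited tables AT4G15680 had 28.9 with EBR and 139 in control at 0 h, and 478 with EBR and 1006 in control after 1 h of heat. AT4G15660 is listed at 0 h only in the same-stage tables, with 108 in EBR and 236 in control. The listing needed at least 2-fold, which AT4G15660 passed at 0 h with 2.23-fold and AT4G15680 narrowly missed after 3 h with 1.99-fold.

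Ratios were larger in the authors' deposited tables than in the value table in 15 of 15 comparisons of these 5 genes at 0 h, 1 h and 3 h, all with the same sign. For AT1G06830 the log2 values of the authors' deposited tables were -2.98, -2.82 and -2.68, where the value table has -1.65, -1.29 and -1.38. For AT3G62950 they were -2.46, -2.26 and -2.02, and for AT4G15680 -2.27, -1.01 and -0.996. Over all probe sets listed for a stage, the median of the log2 value in the tables over that in the value table was 1.54, 1.45 and 1.48. The 5 genes and these probe sets are listed through a 2-fold limit on those same tables, which favours larger values there. The submitters' processing notes name both MAS5 and GCRMA, and the sources used here do not give which of them made which deposit. The size of the EBR effect on AT1G06830 in particular is therefore uncertain, and the values of the deposits are not bounds on it.

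**Figure D2:**
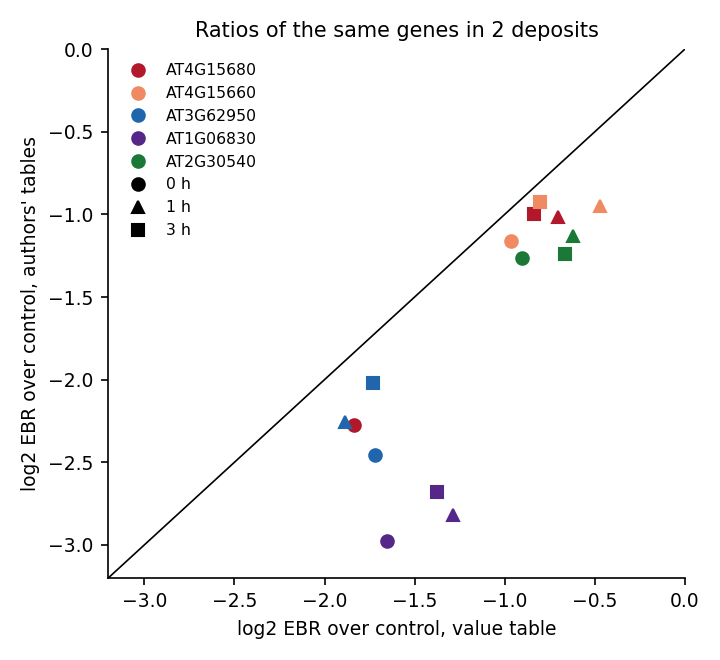
Each point is 1 of the 5 genes at 0 h (circle), 1 h (triangle) or 3 h (square), with the log2 ratio of EBR over control in the value table on the horizontal axis and that in the authors' deposited tables on the vertical axis. The line marks equal values, and all 15 points lie below it, with the 3 points of AT1G06830 farthest.

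The change with heat was read within each arm from the normalized log2 columns of the authors' deposited table that sets 708 probe sets against unstressed control shoots. These are condition means with no error, and the 1 h and 3 h changes of an arm share the same unstressed value, so no test was possible. AT4G15680 had by far the highest heat change of the 5 genes. Its normalized log2 signal was -4.17, -0.03 and 0.16 with EBR and -1.90, 0.98 and 1.15 in control at 0 h, 1 h and 3 h. This is a heat change of 4.14 and 4.32 log2 units with EBR, or 17.6-fold and 20.0-fold, and of 2.88 and 3.05 log2 units in control, or 7.36-fold and 8.27-fold. The heated EBR shoots were above the unstressed control shoots by 1.87 and 2.05, although they stayed below control shoots heated for the same time.

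AT4G15660 had a heat change of 1.14 log2 units at both 1 h and 3 h with EBR, and of 0.93 and 0.90 in control. Its level in heated EBR shoots was level with that of unstressed control shoots, with differences of -0.02 at both times. AT3G62950 had heat changes of 0.22 and 0.80 with EBR and of 0.02 and 0.36 in control. AT2G30540 had 0.27 and 0.24 with EBR and 0.14 and 0.22 in control. AT1G06830 had -0.04 and 0.02 with EBR and -0.20 and -0.28 in control. For these 3 genes heated EBR shoots were still below unstressed control shoots, with differences of -2.24 and -1.66 for AT3G62950, -3.02 and -2.96 for AT1G06830 and -0.99 and -1.02 for AT2G30540.

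At least 2-fold higher with heat were 2 of the 5 genes in EBR shoots at each time, AT4G15680 and AT4G15660, and 1 of 5 in control shoots, AT4G15680. The share of the listed probe sets was 11% at 1 h and 15% at 3 h with EBR, and 11.3% and 10.2% in control. The count differs between arms through AT4G15660 alone, at 2.20-fold with EBR and 1.90-fold and 1.87-fold in control at 1 h and 3 h. For AT4G15660 the arms differ by 0.21 and 0.23 log2 units, less than its approximate control SD of 0.35. None of the 5 was at least 2-fold lower in either arm, where 24.3% and 27% of listed probe sets were so with EBR and 20.5% and 22.3% in control. The median heat change of the 5 genes was 0.27 and 0.80 with EBR and 0.14 and 0.36 in control, against -0.28 and -0.33 with EBR and -0.20 and -0.20 in control for all listed probe sets. The changes with EBR start from 0 h values for which the 5 genes were chosen as low.

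The heat change of AT4G15680 was greater in EBR than in control shoots by 1.26 at 1 h and 1.28 at 3 h in the authors' deposited table. The same difference taken from the value table was 1.14 and 1.00. For the other 4 genes the difference lay between 0.02 and 0.44 in the authors' deposited table, and for AT3G62950 it was -0.16 and -0.01 in the value table, against 0.20 and 0.44. With 1 value per condition the differences between arms were not tested. Each difference equals the EBR to control log2 ratio after heat minus that at 0 h. The 0 h ratio helped to choose the 5 genes as low, so a difference above 0 is partly favoured by that choice.

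**Figure D3:**
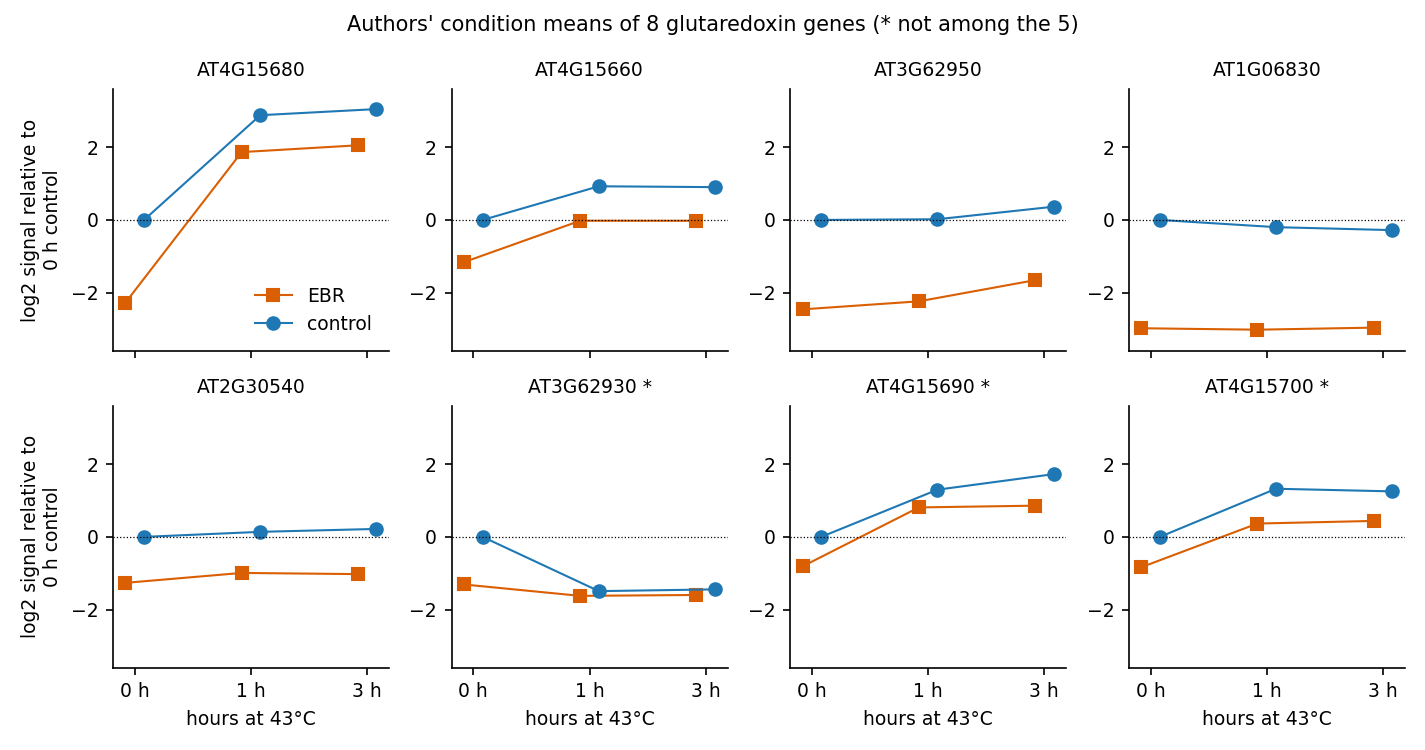
Each panel shows 1 gene, with the authors' mean log2 signal minus that of the unstressed control (vertical axis) before heat and after 1 h and 3 h of it, for EBR (squares, orange) and control (circles, blue). Lines join condition means, which have no error. AT4G15680 climbs in both arms, to 2.05 with EBR, while AT1G06830 with EBR stays between -3.02 and -2.96.

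Of 21 CC-type glutaredoxin genes in the list used here, 8 could be named, the 5 described above and AT3G62930, AT4G15690 and AT4G15700. The other 13 are not analysed here, because probe sets outside the authors' deposited tables could not be named. Since the tables hold probe sets selected for an EBR effect, the direction of any named gene is not independent evidence. In limma over the 4 stages, with 5.06% of all probe sets that rose and 5.91% that fell, 2 of the 3 further genes fell and 1 was not called. The median of their mean ratios was -0.67, where the median of all probe sets lay between -0.04 and -0.01 at each stage.

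AT4G15690 and AT4G15700 complete the named part of the run that holds AT4G15660 and AT4G15680, and AT4G15670 is not analysed here. AT4G15690 had log2 ratios of -0.51, -0.32, -0.90 and -0.96 and fell by 0.67 ± 0.31 (SD, n = 4 stages; limma adjusted p = 0.012). AT4G15700 had -0.46, -0.79, -0.74 and -1.14 and fell by 0.78 ± 0.28 (SD, n = 4 stages; limma adjusted p = 0.00665). The call of AT4G15690 was lost without 3 h (limma adjusted p = 0.0626) and that of AT4G15700 without 1 h (limma adjusted p = 0.0543). All 4 named genes of the run were higher after heat in both arms of the authors' deposited table, with changes of 1.62 and 1.67 for AT4G15690 in EBR and 1.30 and 1.72 in control. AT4G15700 had 1.20 and 1.27 with EBR and 1.32 and 1.25 in control. At 0 h AT4G15690 and AT4G15700 were only 1.75-fold and 1.78-fold lower with EBR in that table. Of its contrasts with unstressed control shoots, only those of heated control shoots reached the 2-fold listing limit for AT4G15690 and AT4G15700. Both could be named only through that heat change, so it is not independent evidence. The files pair each of these probe sets with 1 locus, but the loci are close relatives, so a probe set may also pick up a neighbour's transcript, which was not tested.

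AT3G62930 lies near AT3G62950, with 1 coding gene between them in the annotation. Its log2 ratios were -0.73, -0.06, -0.54 and -0.23, averaging -0.39 ± 0.30 (SD, n = 4 stages), which limma did not call (adjusted p = 0.0623), and it was called when recovery was left out (limma adjusted p = 0.0439). In the authors' deposited table it was 2.48-fold lower with EBR at 0 h, but 1.09-fold lower at 1 h and 1.11-fold lower at 3 h. Its heat change there was -0.31 and -0.29 with EBR and -1.49 and -1.44 in control. Its mean intensity at 0 h was 8.6 with EBR and 22.5 in control, against a lowest listed intensity of 3.55. The heat changes with EBR are about the size of its approximate control SD over the stages, 0.31, and are not read as a fall. AT3G62930 thus had signals lower by well over this SD after heat only in control shoots. AT3G62950 had changes of 0.02 and 0.36 in control shoots, against its approximate control SD of 0.32. Among the same-stage tables AT3G62930 is listed at 0 h only, where its control signal was high relative to EBR. The falls in control shoots start from that same value, so they are partly favoured by the listing. Heated shoots of both arms had a normalized log2 signal below that of unstressed EBR shoots. Whether the low signal made the arms alike during heat was not tested.

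Cytokinin response genes were taken as a related list, since CC-type glutaredoxin genes are known to respond to that hormone. Type-A response regulators are quickly induced by cytokinin and dampen its signalling. Of 10 type-A genes 4 could be named, and all 4 fell in limma over the 4 stages, as did 5.91% of all probe sets, with a median mean ratio of -0.64. They could be named only because they are in tables selected for an EBR effect, so this count is partly fixed by that choice. ARR7 (AT1G19050) had ratios of -1.34, -1.09, -0.88 and -0.47 and fell by 0.94 ± 0.37 (SD, n = 4 stages; limma adjusted p = 0.00717). ARR4 (AT1G10470) had -0.89, -0.80, -0.66 and -0.53 and fell by 0.72 ± 0.16 (limma adjusted p = 0.00282). ARR15 (AT1G74890) fell by 0.54 ± 0.29 (limma adjusted p = 0.0221) and RR16 (AT2G40670) by 0.56 ± 0.42 (limma adjusted p = 0.0482). The calls of ARR15 and RR16 did not survive the removal of any single stage other than recovery (limma adjusted p from 0.0607 to 0.0927 for ARR15 and from 0.0674 to 0.141 for RR16), that of ARR7 without 1 h (limma adjusted p = 0.0585), and that of RR16 also with each stage centred on its median (limma adjusted p = 0.0611).

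At recovery the 5 glutaredoxin genes had ratios of -2.28 to -1.17 and the 4 regulators -0.53 to -0.32. AT3G62930, which is also a CC-type glutaredoxin gene, had -0.23 there, above all 4 regulators. At least 2-fold lower at recovery were 0.365% of all probe sets. The 5 genes were chosen for lower EBR to control ratios, which favours this gap. The approximate control SD at recovery was 0.59 to 0.84 for AT3G62950, AT4G15660, AT2G30540 and AT1G06830. At 0 h the ranges overlapped, with -1.84 to -0.91 for the glutaredoxin genes and -1.34 to -0.89 for the regulators. With heat in EBR shoots the ranges also overlapped in the authors' deposited table, with changes of -0.04 to 4.32 for the 5 glutaredoxin genes and of -1.86 (ARR4) to 0.0045 (ARR15) for the regulators. In control shoots the 5 glutaredoxin genes had changes between -0.28 and 3.05, and all 4 regulators had changes of -1.40 or lower. Of all listed probe sets, 20.5% at 1 h and 22.3% at 3 h were at least 2-fold lower in control shoots. The listing includes contrasts with unstressed control shoots, so a high value there can favour both the naming of a regulator and its fall. The difference between the 2 groups was not tested.

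**Figure D4:**
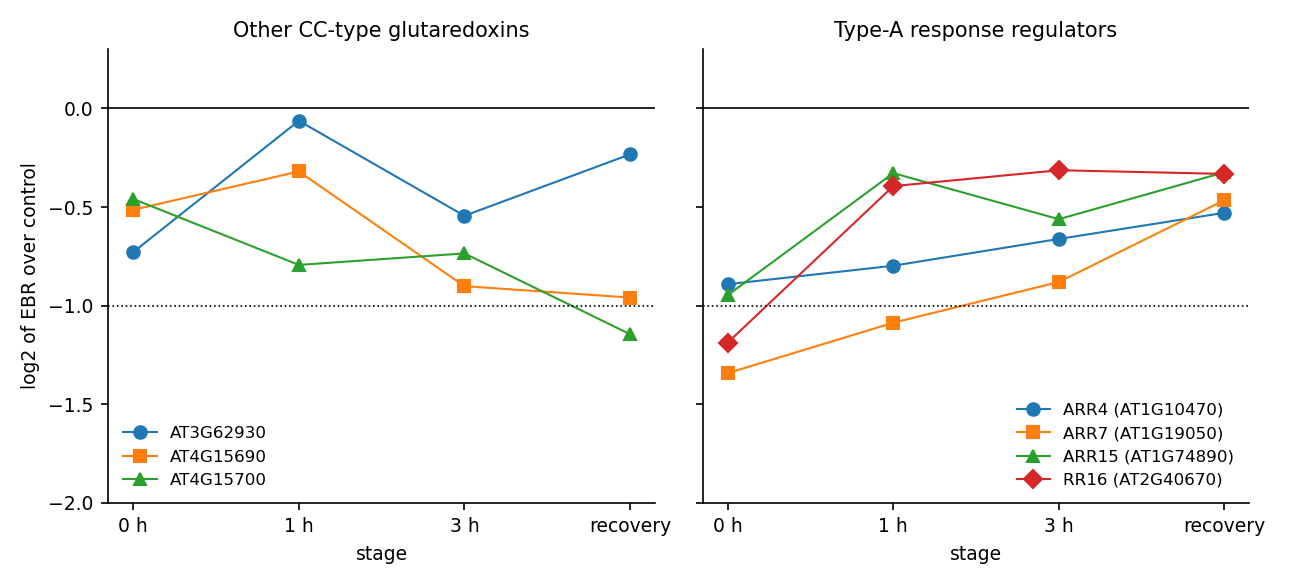
The log2 ratio of EBR over control (vertical axis) is plotted at the 4 stages for the 3 other named CC-type glutaredoxin genes (left) and the 4 named type-A response regulators (right), 1 line a gene, with no error at a stage. The solid line is no difference and the dotted line is 2-fold lower. The regulators lie closest together at recovery, between -0.53 and -0.32.

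No gene could be named in the lists of 10 other glutaredoxins, 10 TGA factors or 13 genes of nitrate uptake and assimilation. Of 14 thioredoxin and thioredoxin reductase genes 1 could be named, TRX5 (AT1G45145), which encodes a cytosolic thioredoxin. TRX5 had ratios of 0.90, 0.22, 0.27 and -0.26, averaging 0.28 ± 0.48 (SD, n = 4 stages), which limma did not call (adjusted p = 0.326), and was called when recovery was left out (limma adjusted p = 0.0487). None of the markers fixed for leaf (5), root (5) or guard cells (3) could be named, so the makeup of the shoots was not checked with them. Of 3 flower markers the floral organ gene PI (AT5G20240) was named, and it fell by 0.75 ± 0.12 (SD, n = 4 stages; limma adjusted p = 0.00181), with ratios of -0.69, -0.72, -0.67 and -0.94. PI and TRX5 could be named only because they are in tables selected for an EBR effect, so their results are not independent evidence. The part of floral tissue in the glutaredoxin ratios was not tested.

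The genes most like the median profile of the 5 over the 4 stages were found by root mean square distance of the log2 ratios among the named genes. The 5 genes themselves lay at 0.14 (AT4G15680) to 0.87 (AT3G62950) from it. The 8 nearest others lay at 0.25 to 0.46. They were UBC17 (AT4G36410), a ubiquitin-conjugating enzyme gene, at 0.25, the lyase-annotated AT4G24780 at 0.29 and the MADS-box gene AGL87 (AT1G22590) at 0.33. The others were AT1G33340, annotated with phospholipid binding, P1R1 (AT5G57780), AT5G55620, the thionin gene THI2.2 (AT5G36910) and AT5G57785. UBC17 had ratios of -1.18, -0.66, -0.72 and -1.33, close to those of the median profile at every stage but 0 h. Likeness over 4 values is weak, and the distances are a description.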

How the data were processed

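Shoot RNA was labelled with biotin and hybridised to Affymetrix ATH1 arrays, per the labels. MAS5 and GCRMA appear in the submitters' processing notes, without version or role. The deposited value table holds a linear ratio per probe set and sample, and its control columns never exceed 1 and have medians of 0.998 to 0.999, so each ratio was taken to be over the control of that stage. In the authors' deposited tables, signal intensity and normalized log2 values are condition means. Per the file headers, a probe set is listed there if its treatment term in a 2-way analysis of variance had a corrected p of at most 0.05 and its fold was at least 2. Their direction was turned to EBR minus control.

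From these, log2 of EBR over control was taken per stage over 22746 probe sets, without 11 array control probe sets. The approximate control SD takes a control value as the geometric over the arithmetic mean of the 3 arrays. limma 3.58.1 in R 4.3.3 fitted the 4 ratios against 0, and recovery against the rest, with Benjamini-Hochberg adjustment at 0.05 over all probe sets. The planned second test is not given for the 5 genes, since the stages it subtracts chose them. Stages stand in for replicates there, so p-values measure agreement between stages, which may share plant batches. The tests were also run on simulated data, with an outcome that is not given here. Genes were named from the locus column, which gave 1 locus for 692 of 733 probe sets, each found in the TAIR10.1 table. The files name no build, so no coordinates are given, and the planned comparison of protein and promoter sequences was not made. The members and lists were chosen with earlier results of these data known. Named genes are the 5 members, every named gene of the lists and the 8 nearest profiles. The number of arrays limits the precision.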

Additional observations from a re-analysis of the deposited data

Results flagged for a closer look

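The 3 h heat change of AT1G06830 in the authors' deposited table had opposite signs in the 2 arms, 0.02 log2 units in EBR shoots and -0.28 in control shoots, a difference of 0.30 that was not tested. The EBR value is too near 0, on a signal close to the lowest listed intensity, to be read as a movement, and at 1 h both arms had the same sign, at -0.04 in EBR shoots and -0.20 in control shoots. The approximate SD of its control arrays in the value table, 0.47 over the stages, is larger than this difference.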

How the results depend on the processing

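No paired analysis was possible because each group has 1 deposited value, although the labels number the arrays behind it. Median centring and quantile normalization left all 20 ratios of the 5 genes below 0, with shifts of at most 0.04 and 0.36. In the authors' deposited tables the median of the 5 genes was -2.27, -1.13 and -1.24 at 0 h, 1 h and 3 h, against -1.65, -0.70 and -0.83, and the cause was not tested. Heat changes recomputed from mean intensity, possible for 14 of 20, moved by less than the approximate control SD. At a 1.5-fold limit, looser by construction, 263, 348, 274 and 494 probe sets were lower at the 4 stages in order, against 28, 28, 35 and 83. For recovery against the other stages, 85 probe sets were higher and 25 lower. Centring left 25 and 8, and quantile normalization put 16 lower. The difference, untested for the 5 genes, turned to 0.28 for AT4G15680 and 0.081 for AT1G06830 under quantile normalization, and the cause was not tested. Over the 4 stages 1151 probe sets rose and 1344 fell. Leaving out 1 stage, which also leaves fewer ratios, gave 262 to 1648 that rose and 186 to 1636 that fell, the lowest without 1 h and the highest without recovery. Median centring raised the share that rose by giving 1313 and 960. Over these alternatives the limma adjusted p ranged from 0.0108 to 0.0626 for AT4G15690, 0.0027 to 0.0543 for AT4G15700, 0.0439 to 0.222 for AT3G62930, 0.000491 to 0.0585 for ARR7, 0.0107 to 0.0927 for ARR15, 0.0309 to 0.141 for RR16 and 0.0487 to 0.819 for TRX5. ARR4 and PI kept their calls, at no more than 0.0343 and 0.0248. The call of RR16 was also lost under quantile normalization (limma adjusted p = 0.0532). The alternative for protein alignment was not run, since no protein sequences were used here. Precision is limited by 1 value per condition.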

Other observations

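Of the 6 probe sets at least 2-fold lower with EBR at every stage, 3 could be named. Besides AT3G62950 and AT1G06830 this was AT4G04840, which encodes a methionine sulfoxide reductase, with log2 ratios of -1.11, -1.62, -1.43 and -1.83. It was named after its values were seen. Of the coding genes within 3 places of the 5 genes in the annotation, AT2G30550 was the only named one that is not a CC-type glutaredoxin. This lipase-annotated gene next to AT2G30540 had log2 ratios of 0.38, 0.51, 0.56 and 0.17 with EBR, all above 0, where AT2G30540 was below 0 at every stage.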
